A study of Mus musculus with 12 samples.

Results

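The effect of leptin deficiency on pancreatic islets was examined across both states of the Pparg2 gene. All 12 arrays of the series entered: 6 from obese mice (3 ob/ob and 3 POKO) and 6 from lean mice (3 WT and 3 PPARγ2KO). ob/ob mice lack functional leptin and keep PPARγ2, PPARγ2KO mice lack the PPARγ2 isoform and keep leptin, and POKO mice, labelled as the OB PPARg2 double knockout, lack both. The question was which genes were higher or lower in obese than in lean islets once the PPARγ2 state was allowed for. All mice were on a C57BL/6 x Sv129 background, ate chow and were 4 weeks old by the labels, whereas the study's text gives a slightly older age and female sex. Neither deletion is restricted to islets by the labels, so every tissue of the animals carried it. Each array held RNA from islets pooled from several mice, separated with collagenase, picked by hand and cultured overnight, so that the arrays of a genotype are separate pools and their spread covers pools, not single animals.

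Leptin is a hormone of adipose tissue that restrains feeding through receptors in the hypothalamus, and mice without it overeat, become obese and insulin resistant, and enlarge their islets. Beta cells, the most abundant endocrine cells of the islet, package insulin into dense-core granules together with granins, processing enzymes and other peptides. PPARγ is a nuclear receptor for fatty acid derivatives that drives adipocyte differentiation, and PPARγ2 is its adipose-enriched isoform, which can be induced in other tissues by overnutrition. Islets also hold resident macrophages, endothelial cells and a few lymphocytes, and isolated islets usually carry some acinar and duct tissue.

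Dense-core granule genes and interferon-stimulated genes recur in the results, and promoters of both groups are printed because short motifs with textbook regulators stand in them. The cyclic AMP response element, TGACGTCA, is bound by CREB and reads the same on both strands. The sequences run from 250 bases before to 50 bases after the transcription start (RefSeq, GRCm38.p6), 5′ to 3′ along the gene, with every match in capitals. In Scg2 the match begins at position -68 from the start, in Chgb at -72 and in Cartpt at -112.
Scg2 (chr1:79439977-79440276, minus strand): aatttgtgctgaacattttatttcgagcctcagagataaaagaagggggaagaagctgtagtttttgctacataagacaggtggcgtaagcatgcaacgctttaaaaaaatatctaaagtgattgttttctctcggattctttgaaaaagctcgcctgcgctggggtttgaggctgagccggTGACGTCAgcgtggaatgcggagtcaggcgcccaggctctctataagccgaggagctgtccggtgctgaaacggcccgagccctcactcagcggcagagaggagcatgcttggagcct
Chgb (chr2:132781392-132781691, plus strand): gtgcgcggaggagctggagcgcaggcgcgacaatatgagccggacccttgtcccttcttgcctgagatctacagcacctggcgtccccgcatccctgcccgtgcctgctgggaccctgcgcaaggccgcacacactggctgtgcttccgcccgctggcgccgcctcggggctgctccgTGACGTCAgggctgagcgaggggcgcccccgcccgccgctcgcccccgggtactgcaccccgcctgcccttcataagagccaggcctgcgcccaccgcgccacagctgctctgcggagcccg
Cartpt (chr13:99900634-99900933, minus strand): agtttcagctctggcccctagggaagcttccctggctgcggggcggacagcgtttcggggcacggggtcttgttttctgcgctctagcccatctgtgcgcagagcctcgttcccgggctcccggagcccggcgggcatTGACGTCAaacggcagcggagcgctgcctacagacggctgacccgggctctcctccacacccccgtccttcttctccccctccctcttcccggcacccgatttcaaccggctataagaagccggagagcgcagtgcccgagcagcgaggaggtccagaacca

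The core of the interferon-stimulated response element, searched on both strands as GAAA, any 2 bases and GAAA again, is bound by the STAT and IRF factors that interferons activate. Ifit3 holds 2 matches, and Gbp2 and Cxcl10 hold 1 each.
Ifit3 (chr19:34583279-34583578, plus strand): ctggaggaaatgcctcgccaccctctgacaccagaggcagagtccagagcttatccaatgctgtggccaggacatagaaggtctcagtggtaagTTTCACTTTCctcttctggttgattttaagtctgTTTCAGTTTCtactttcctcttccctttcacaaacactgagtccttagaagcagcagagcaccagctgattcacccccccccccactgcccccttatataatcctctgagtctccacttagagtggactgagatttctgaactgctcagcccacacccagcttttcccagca
Gbp2 (chr3:142620413-142620712, plus strand): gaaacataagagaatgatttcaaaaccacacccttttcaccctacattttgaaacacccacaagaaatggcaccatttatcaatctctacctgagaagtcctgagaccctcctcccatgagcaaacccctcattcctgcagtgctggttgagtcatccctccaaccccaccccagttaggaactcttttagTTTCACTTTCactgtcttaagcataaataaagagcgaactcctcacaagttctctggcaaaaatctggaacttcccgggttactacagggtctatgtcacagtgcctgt
Cxcl10 (chr5:92348840-92349139, minus strand): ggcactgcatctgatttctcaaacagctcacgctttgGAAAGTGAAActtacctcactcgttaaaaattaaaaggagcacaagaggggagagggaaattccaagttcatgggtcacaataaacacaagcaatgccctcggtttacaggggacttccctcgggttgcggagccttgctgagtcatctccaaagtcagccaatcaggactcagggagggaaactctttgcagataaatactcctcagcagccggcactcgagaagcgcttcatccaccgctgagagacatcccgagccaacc

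Of all 32851 promoters of this length, 1.79% held TGACGTCA and 3.44% held the interferon motif. Of the 6 granule and prohormone genes that rose, 5 have an entry and 3 held TGACGTCA, with no match in Cck and Scg3. Of 12 interferon-stimulated genes that rose by adjusted p alone, 10 have an entry and 7 held the interferon motif, with no match in Ifit2, Irf9 and Ifi44. Over the whole lists, regardless of change, the motif stood in 3 of 18 granin and neuropeptide genes and in 16 of 23 interferon-stimulated genes with an entry. The motifs were chosen after the array values had been seen, a match is a description of the letters only, and no match says nothing about a factor.

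The arrays are Agilent Whole Mouse Genome 4x44K slides in 1 colour, and values are log2 signals after quantile normalization of the scanner's processed signal, with 41174 probes per array. The obese arrays were brighter before normalization: the median processed signal was 20.9 to 30.4 on the lean and 30.7 to 40.6 on the obese arrays, and 54.3 to 60.9% against 60.4 to 64.9% of spots were well above background. The part of this difference in the results was not tested. With 6 arrays per state, the array number sets how precise a value can be. Lep was near the bottom of the scale, at 1.26 to 1.42 on all 12 arrays, and so does not check the leptin labels. Pparg was 8.54 to 9.77 on the 6 arrays with intact PPARγ2 and 6.42 to 7.44 on the 6 arrays without it, matching each label, and did not differ with leptin (log2 difference 0.10, SE 0.25, adjusted p = 0.823). Islet hormones were at the top of the scale on every array (Ins2 18.90 to 18.95), but so were acinar enzymes (Ctrb1 18.11 to 18.62), so all arrays hold exocrine RNA. A single lean array, PPARγ2KO replicate 2, stands apart: its mean level of 16 B cell markers was 6.81, against 2.82 to 3.54 on the other 5 lean arrays and 5.70 to 7.08 on the obese arrays. Its Pparg level (7.27) matched its PPARγ2 label, and Lep could not check its leptin label. Its levels of Scg2 (11.30), Cck (9.48), Aldh1a3 (6.91) and Kcnj12 (6.96) lay within the range of the other lean arrays. Those of Cyp26b1 (7.11), Tnfrsf11b (7.30) and Thrsp (7.02) lay above the other lean arrays and below the obese ones. All these genes were picked with this array counted as lean. Whether lymphoid tissue in the pool or a mislabelled pool gave the values of this array was not tested. Immune results are given with and without it. Since it was singled out by immune levels, the smaller p-values of immune genes without it are conditional on that choice and are given as descriptions. WT replicate 1 had the lowest Ins1 level, 17.07 against 17.39 to 18.62 elsewhere.

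Leptin deficiency was associated with many more rises than falls. In the additive fit (limma with leptin and PPARγ2 state as factors, Benjamini-Hochberg adjustment over all probes), 775 probes, 1.88% of those tested, rose and 149, 0.362%, fell at adjusted p of at most 0.05 and an absolute log2 difference of at least 1. They carry 459 and 89 gene symbols. With 1 probe per gene, the brightest, 420 of 17305 genes (2.43%) rose and 64 (0.37%) fell, and these shares are the background for every list below. By adjusted p alone the directions were near balance, with 1195 probes higher and 1258 lower, and with scaling to the 75th percentile of each array they were 1538 and 970. The median difference of all genes was -0.05, with 7541 genes higher and 9764 lower, which is the background for every sign count below. The 6 obese and 6 lean arrays did not overlap for 316 of the 775 risen and 91 of the 149 fallen probes; over all genes the share without overlap was 2.17% upward and 3.53% downward. In another 316 risen probes PPARγ2KO replicate 2 was the sole lean array that reached into the obese range, and it was the highest lean array in 58.3% of the risen probes against 16.9% of all probes.

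**Figure D1:**
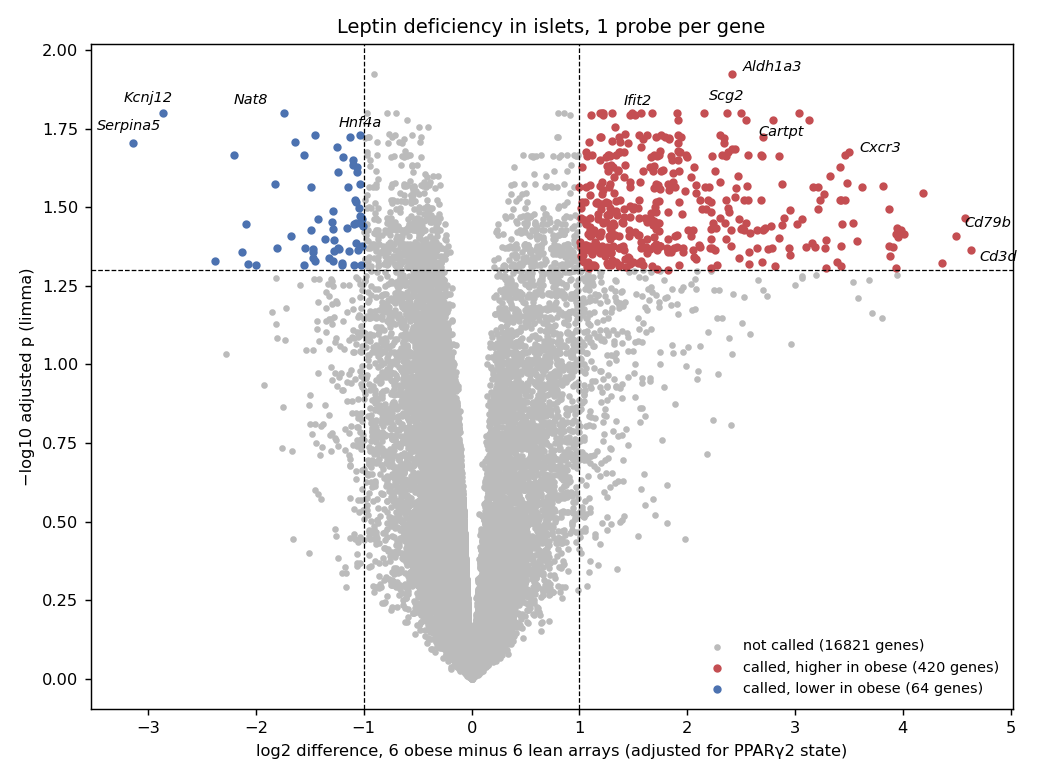
Log2 difference of obese minus lean islets (x axis) against −log10 of the adjusted p (y axis) for 17305 genes, 1 point per gene, where dashed lines mark an adjusted p of 0.05 and a log2 difference of 1 either way. The 420 red points, the risen genes, reach a difference of 4.63 (Cd3d), while the 64 blue points, the fallen genes, end at -3.14 (Serpina5).

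The adjusted p of most called probes lay close to the limit (smallest 0.00187), and the counts moved with single arrays. The total of 924 was 101 to 106 without any one of WT replicate 1 (106), WT replicate 2 (105), PPARγ2KO replicate 1 (102), ob/ob replicate 2 (105) or POKO replicate 1 (101), 149 without ob/ob replicate 3, 376 without WT replicate 3, and 1527 without PPARγ2KO replicate 3. Each of 3 slides held 1 array of every genotype. With the slide (the replicate number) as a block the fit gave 529 risen and 121 fallen probes, and the difference within a slide had the same sign on all 3 slides for all 775 and all 149 probes, which calls made on the same arrays largely fix. Of 69 named genes called in the main fit, 14 kept an adjusted p of at most 0.05 under all 21 alternatives: Scg2, Cartpt, Aldh1a3, Igfbp3, Ifit2, Ccl5, Cyp26b1, 6330403K07Rik, Chil6, Laptm5 and Lax1 among the rises, and Kcnj12, Nat8 and Hnf4a among the falls. None of the 69 changed sign in any of them. Lists with 1 or 2 called members, other than the cytotoxic list, kept 0 to 3 when 1 array was left out. These counts concern adjusted p alone, and with the normexp background the differences of dim genes shrank, to 0.16 for Lax1 and -0.55 for Kcnj12.

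Genes of the dense-core secretory granule and neuropeptides were among the clearest rises. Of 19 measured granins and neuropeptides 5 rose, 0 fell and 14 did not pass, with a median difference of 0.62. The 5 became 2 without WT replicate 2, PPARγ2KO replicate 1 or POKO replicate 1, 3 without WT replicate 1, ob/ob replicate 2 or ob/ob replicate 3, and 8 without PPARγ2KO replicate 3. Scg2 encodes secretogranin II, a granin of dense-core granules and the precursor of secretoneurin. Scg2 (NM_009129) was at 10.68 to 12.18 (median 11.27) on the lean arrays and at 13.47 to 14.32 (median 13.68) on the obese arrays. Every obese array was above every lean array, and the difference was 2.37 (SE 0.29, 5.16-fold, adjusted p = 0.0158, n = 6 arrays per state). Cartpt, which encodes the appetite-suppressing peptide CART, also made by islet cells, was at 5.72 to 7.66 (median 6.45) on lean and 8.30 to 10.59 (median 8.74) on obese arrays. The groups did not overlap and the 3 POKO arrays were the highest, with a difference of 2.54 (SE 0.35, adjusted p = 0.0166). A second Cartpt probe gave 2.52.

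Chgb, which encodes chromogranin B, a major granin of beta cell granules, was at 14.14 to 15.95 (median 15.13) on lean and 16.29 to 17.04 (median 16.75) on obese arrays, without overlap (difference 1.67, SE 0.28, adjusted p = 0.0218). Cck encodes cholecystokinin, a gut and brain peptide that obese islets are known to make. Cck was at 7.89 to 9.82 (median 8.94) on lean and 9.39 to 12.25 (median 11.73) on obese arrays, and 2 ob/ob arrays (9.39 and 9.74) lay within the lean range (difference 2.25, SE 0.40, adjusted p = 0.0243). Scg3, which encodes secretogranin III, a binding partner of chromogranin A, rose by 1.36 on the log2 scale (adjusted p = 0.0425). Over the alternatives the adjusted p reached 0.0459 for Scg2 and 0.0462 for Cartpt, while Chgb exceeded 0.05 in 5 and Cck in 4 of 21 (highest adjusted p 0.0594 and 0.0638). The members that did not pass included Chga, chromogranin A (0.92, adjusted p = 0.0826), Pcsk1n, a prohormone convertase inhibitor (0.41, adjusted p = 0.555), and Ucn3, the beta cell maturity marker urocortin 3 (-0.97, adjusted p = 0.267).

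Among 21 glucose sensing and insulin processing genes 1 rose and 0 fell. This was Cpe, which encodes carboxypeptidase E, the granule enzyme that trims basic residues from prohormone intermediates. Cpe was at 13.46 to 14.96 (median 14.06) on lean and 15.07 to 16.20 (median 15.43) on obese arrays. The groups did not overlap, and the difference was 1.42 (SE 0.25, adjusted p = 0.0253), with a second probe at 1.29. The insulin processing enzyme Pcsk2 (0.57, adjusted p = 0.254) and the KATP channel subunit Abcc8 (0.71, adjusted p = 0.158) did not pass.

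**Figure D2:**
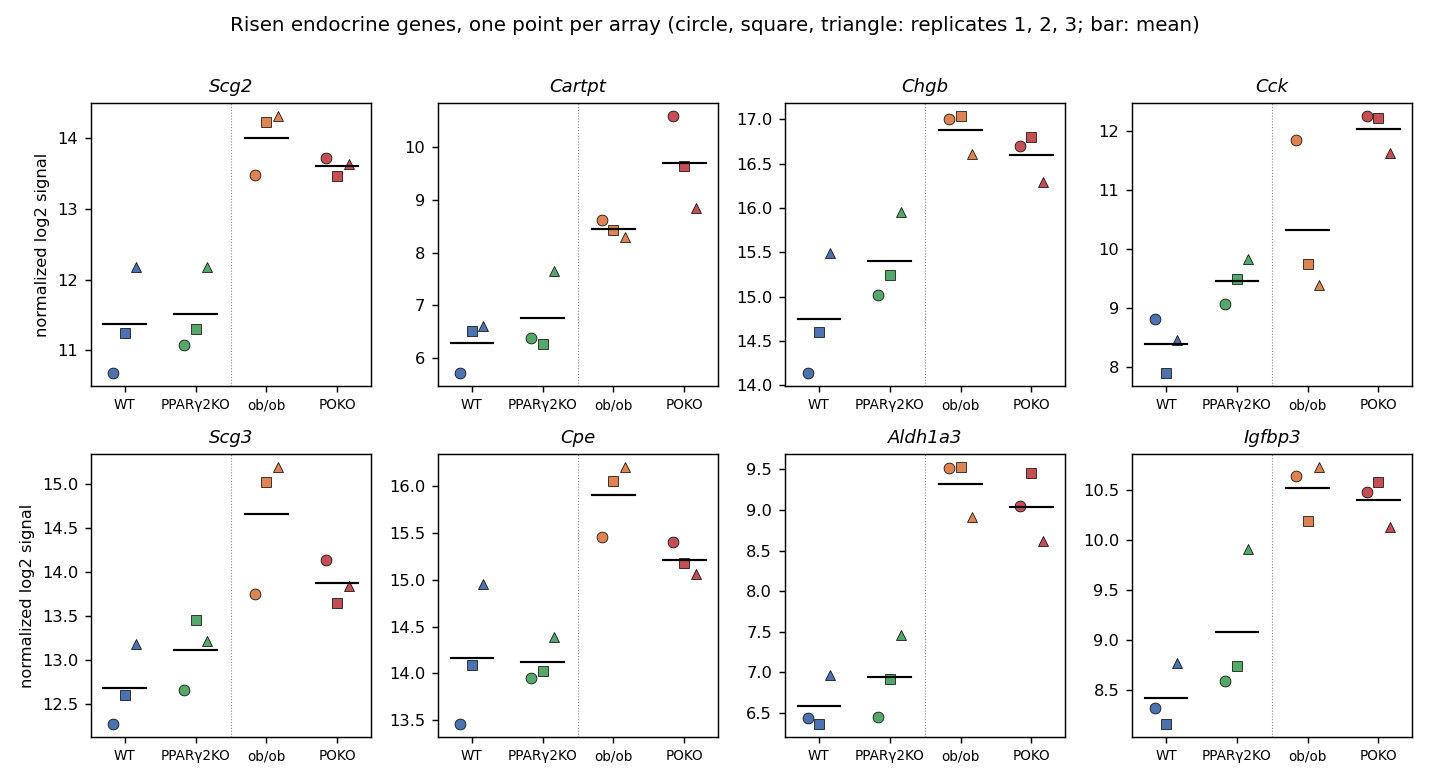
Normalized log2 signal (y axis) of 8 risen genes in the 4 genotypes (x axis), 1 point per array with marker shape for the replicate number and a bar for the mean of 3; the dotted line separates lean from obese. For 7 of the 8 genes the 6 obese points lie above the 6 lean points; in Cck 2 ob/ob points fall within the lean range.

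The genes of endocrine identity themselves mostly did not pass. Of 7 islet peptide hormones 0 passed in either direction, with Ins1 at 0.54 (adjusted p = 0.156), Gcg at 0.13 (adjusted p = 0.281) and Sst at -0.38 (adjusted p = 0.485). Ins2 sat at the top of the scale, where a difference would be compressed. The median of the hormone list was 0.16, and it turned to -0.16 with scaling to the 75th percentile. No member of 11 beta cell, 10 alpha cell or 7 delta cell markers passed. Of 14 beta cell transcription factors 0 rose and 1 fell. Hnf4a, a nuclear receptor mutated in a monogenic form of diabetes and abundant in liver and gut, was at 7.09 to 7.87 (median 7.59) on lean and 5.97 to 6.71 (median 6.45) on obese arrays. Hnf4a did not overlap between the states, and its difference was -1.13 (SE 0.17, adjusted p = 0.0189, up to 0.0496 over the alternatives). A second Hnf4a probe gave -1.14 (adjusted p = 0.123), and the remaining probe was dim throughout. Nkx6-1 (0.55, adjusted p = 0.193), Pdx1 (-0.32, adjusted p = 0.386) and Mafa (-0.60, adjusted p = 0.52) did not pass.

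Of 19 genes that mature beta cells normally silence or that mark dedifferentiated ones, 2 rose and 0 fell by the full criteria, while 16 of the 19 had a negative difference (median -0.31). The list median was -0.70 with PPARγ2 intact and 0.04 without it. Aldh1a3 encodes a retinaldehyde dehydrogenase that makes retinoic acid and marks stressed beta cells in diabetic mice. Aldh1a3 (NM_053080) was at 6.36 to 7.46 (median 6.68) on lean and 8.62 to 9.53 (median 9.25) on obese arrays. The gap between the highest lean and the lowest obese array exceeded the range within either state, and the difference was 2.42 (SE 0.23, 5.34-fold, adjusted p = 0.0119). Gc, which encodes the vitamin D binding protein and is made by alpha cells, was at 9.53 to 11.02 (median 10.37) on lean and 11.70 to 12.98 (median 11.97) on obese arrays, without overlap (difference 1.86, SE 0.32, adjusted p = 0.0224). Sox9, a duct and progenitor factor, fell by 0.62 on the log2 scale (adjusted p = 0.0301).

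The 12 largest rises without overlap included genes of no list. Cyp26b1, which encodes a cytochrome P450 that degrades retinoic acid, was at 5.80 to 7.11 (median 6.44) on lean and 8.28 to 10.07 (median 8.79) on obese arrays. All 6 obese arrays lay above the lean arrays, and the difference was 2.50 (SE 0.32, adjusted p = 0.0158). The uncharacterized transcript 6330403K07Rik rose by 3.04 (SE 0.39, adjusted p = 0.0158), from 4.91 to 7.30 (median 6.36) on lean to 8.64 to 9.83 (median 9.28) on obese arrays. Asb9, an ankyrin repeat and SOCS box protein, rose by 2.88 (SE 0.62, adjusted p = 0.0359) but was well above background on 1 of the 6 lean arrays. Its adjusted p exceeded 0.05 in 10 of 21 alternatives.

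Single members of the signalling and metabolic lists rose. Igfbp3, an IGF-binding protein that restrains IGF action, was at 8.16 to 9.90 (median 8.66) on lean and 10.13 to 10.73 (median 10.53) on obese arrays, without overlap (difference 1.71, SE 0.26, adjusted p = 0.0189). It was the 1 of 23 leptin, insulin and IGF signalling genes past both criteria. By adjusted p alone Socs3, a feedback inhibitor of cytokine and leptin receptors, rose by 0.86 (adjusted p = 0.0358), Ptpn1, a phosphatase that acts on the insulin receptor, rose by 0.53 (adjusted p = 0.0416, and adjusted p = 0.0691 for a second probe), and Igf1 fell by 0.65 on the log2 scale (adjusted p = 0.0477). Lepr, the leptin receptor, was dim, well above background on 2 lean and 0 obese arrays, and differed by -0.62 (adjusted p = 0.235). Of 20 prolactin and serotonin programme genes 1 rose: Tnfrsf11b, which encodes osteoprotegerin, a decoy receptor for RANKL, was at 6.34 to 7.30 (median 6.77) on lean and 7.96 to 9.32 (median 8.20) on obese arrays (difference 1.59, SE 0.24, adjusted p = 0.0192).

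Thrsp, a lipogenic regulator induced by carbohydrate and thyroid hormone, was the 1 of 19 fatty acid and triglyceride synthesis genes past both criteria. It was at 4.91 to 7.02 (median 6.03) on lean and 7.54 to 8.31 (median 7.80) on obese arrays, and within the lean arrays the 3 WT values (4.91 to 5.57) lay below the 3 PPARγ2KO values (6.49 to 7.02). The leptin difference was 1.91 (SE 0.30, adjusted p = 0.0197). Fasn, fatty acid synthase, differed by -0.39 (adjusted p = 0.33). Among 41 mitotic cell cycle genes 1 rose by both criteria. Mki67, the proliferation antigen Ki-67, was at 5.75 to 6.82 (median 6.62) on lean and 7.06 to 8.0 (median 7.84) on obese arrays, without overlap (difference 1.32, SE 0.25, adjusted p = 0.0285, above 0.05 in 7 of 21 alternatives). The list as a whole had a median of 0.15 with 25 members higher and 16 lower. By adjusted p alone 2 members, Mki67 included, were higher and 2, Ezh2 and Cdk6, were lower. Over all genes these shares were 3.95% and 3.33%.

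Many immune genes were higher in obese islets in the fit on all arrays, and how many passed changed strongly with single arrays. Of 19 T cell markers 11 rose, of 16 B cell markers 10, of 13 MHC class II and peptide loading genes 7, of 15 macrophage markers 7, of 33 chemokines and receptors 9, and of 14 cytotoxic lymphocyte markers 1; none of these members fell, and the share over all genes was 2.43%. The list medians were 2.22, 2.76, 2.09, 1.11, 0.80 and 0.82 in this order, against -0.05 over all genes. Members with a negative difference numbered 3, 0, 2, 3, 8 and 5 in the same order. Members well above background on no array numbered 1, 1, 1, 1, 4 and 5, so signs and medians rest partly on dim probes. Of 9 dendritic cell markers 1 rose, with a list median of 0.26, and 3 were well above background on no array. In bulk islet RNA more cells of a type and more RNA per cell cannot be told apart. Of the 5 lists other than chemokines, 0 members were without overlap upward between the 6 obese and 6 lean arrays (2.17% of all genes were). Downward, 1 macrophage marker was without overlap, with or without PPARγ2KO replicate 2 (3.53% of all genes with it). Without PPARγ2KO replicate 2, the members without overlap upward numbered 13 T cell, 13 B cell, 11 MHC class II, 8 macrophage and 6 cytotoxic genes, where 4.93% of all genes were (4.71% downward). Without that array 11 T cell, 13 B cell, 11 MHC class II, 9 macrophage, 12 chemokine and 5 cytotoxic genes rose (3.13% of all genes, with 0.376% falling). On that array the mean level of the T cell markers was 6.05, against 3.37 to 3.82 on the other lean arrays and 5.08 to 7.12 on the obese ones, and that of MHC class II was 7.94, against 4.94 to 5.44 and 7.22 to 8.16. Other omissions removed the calls: without any one of WT replicate 1, WT replicate 2, ob/ob replicate 2 or POKO replicate 1, 0 T cell, B cell, MHC class II, macrophage or cytotoxic genes and 1 chemokine gene were called. Without PPARγ2KO replicate 1 or ob/ob replicate 3 those 5 lists together, chemokines aside, kept 1 gene, of MHC class II. With the slide as a block 2 T cell, 5 B cell, 3 MHC class II, 4 macrophage, 5 chemokine and 0 cytotoxic genes were called, and with the normexp background 1, 0, 2, 2, 1 and 0 in this order.

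**Figure D3:**
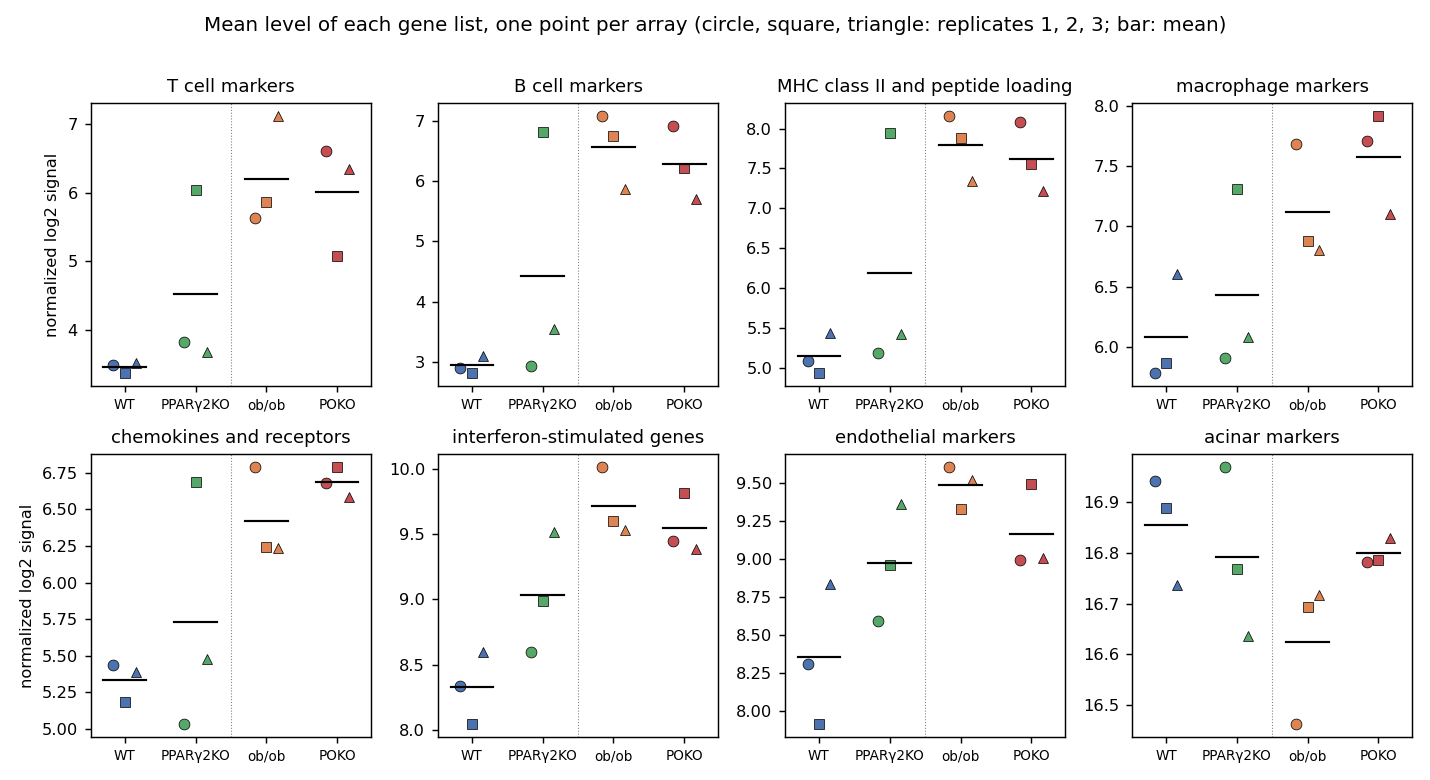
Mean normalized log2 signal over each of 8 gene lists (y axis) in the 4 genotypes (x axis), 1 point per array with marker shape for the replicate number and a bar for the mean of 3; the dotted line separates lean from obese, and the y axes differ. In the T cell, B cell, MHC class II and chemokine panels the square of PPARγ2KO, its replicate 2 (6.05, 6.81, 7.94 and 6.69), lies among the obese points, far from the other 5 lean points.

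Among T cell genes, Lat, an adaptor that the T cell receptor needs for signalling, was at 1.72 to 6.49 (median 3.40) on lean and 5.99 to 8.53 (median 7.57) on obese arrays. The highest lean value was that of PPARγ2KO replicate 2, above the lowest obese array, POKO replicate 2; the difference was 3.82 (SE 0.70, adjusted p = 0.0269) and 4.33 without that lean array (adjusted p = 0.00381). Il7r, the interleukin 7 receptor of naive and memory T cells, differed by 2.30 (adjusted p = 0.0262) and by 2.67 without the array (adjusted p = 0.0009). Cd3d, a chain of the T cell receptor complex, differed by 4.63 (SE 1.11, adjusted p = 0.0431), which was 0.0623 with the slide as a block.

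Among B cell genes, Cd79b, the signalling chain of the B cell receptor, was at 4.34 to 10.99 (median 5.48) on lean and 9.72 to 11.45 (median 10.66) on obese arrays. The lean arrays other than PPARγ2KO replicate 2 ended at 5.90, so the difference was 4.49 with it (SE 1.00, adjusted p = 0.039) and 5.48 without it (adjusted p = 0.000325). Pou2af1, a coactivator of immunoglobulin genes, differed by 4.01 (adjusted p = 0.0385) and by 4.89 without the array (adjusted p = 0.000314). Cd79b and Fcmr missed the threshold with the slide as a block (adjusted p = 0.0504 and 0.0583). Cd74, the invariant chain that loads MHC class II, was at 9.09 to 12.14 (median 9.66) on lean and 11.42 to 12.72 (median 12.44) on obese arrays (difference 2.30, adjusted p = 0.0341, and 2.75 without the array). The protease Ctss, which degrades Cd74, rose by 1.99 (adjusted p = 0.0216), and H2-Aa and H2-Ab1, the chains of the class II molecule, rose by 2.12 and 2.06 (adjusted p = 0.0423 and 0.0431).

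Several leukocyte genes passed the rule of no overlap because PPARγ2KO replicate 2 fell just short of the obese arrays. Cxcr3, a chemokine receptor of activated T cells, was at 1.33 to 1.43 on 5 lean arrays, at 4.78 on PPARγ2KO replicate 2 and at 4.83 to 6.35 (median 5.37) on obese arrays (difference 3.50, SE 0.56, adjusted p = 0.021), and was well above background on that lean array alone. Sla (3.32, but 1.11 and adjusted p = 0.228 for a second probe), an adaptor that dampens antigen receptor signalling, Laptm5 (2.70), a lysosomal protein of leukocytes, and Selplg (2.70), the P-selectin ligand, followed the same order, with PPARγ2KO replicate 2 the highest lean array. Lax1, an adaptor of lymphocytes, was dim on all lean arrays, at 1.57 to 3.72 and never well above background, and was at 4.24 to 5.51 on obese arrays (adjusted p = 0.0166). Chil6, a chitinase-like protein of macrophages, was at 1.12 to 3.25 (median 2.75) on lean and 4.93 to 6.16 (median 5.36) on obese arrays (difference 3.13, SE 0.43, adjusted p = 0.0166), and on PPARγ2KO replicate 2 it was at 3.19, close to PPARγ2KO replicate 3 (3.25).

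The macrophage list had medians of 1.09 with and 1.14 without PPARγ2, where the controls of the second value include PPARγ2KO replicate 2, the highest lean array for this list (7.31 against 5.79 to 6.61). C1qa, a chain of complement C1q made by tissue macrophages, was at 8.51 to 9.63 (median 8.76) on lean and 9.57 to 10.39 (median 10.23) on obese arrays, with overlap between WT replicate 3 and POKO replicate 3 (difference 1.26, SE 0.21, adjusted p = 0.0216). Mpeg1, a pore-forming protein of macrophages, differed by 1.55, and by 1.79 without PPARγ2KO replicate 2, and a second probe gave 1.21 (adjusted p = 0.0552). Lyz1, a lysozyme, differed by 2.35 (adjusted p = 0.0353). Among chemokines Ccl5, which draws T cells and macrophages, was at 9.91 to 11.70 (median 10.76) on lean and 12.42 to 13.12 (median 12.62) on obese arrays, without overlap (difference 1.94, SE 0.29, adjusted p = 0.0189), and Ccl3 and Ccl4 rose by 1.21 and 1.28. Ccl2, the main monocyte chemoattractant, differed by 0.12 (adjusted p = 0.78). Of the 33 chemokines and receptors 3 were without overlap upward and 1 downward (2.17% and 3.53% of all genes). Without PPARγ2KO replicate 2 these were 13 and 1 (4.93% and 4.71% of all genes). The downward member differed by -1.27 in the fit on all arrays and did not pass (limma adjusted p = 0.0849).

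Of 27 interferon-stimulated genes 26 had a positive difference, 7 rose by both criteria and 12 by adjusted p alone (3.95% of all genes), with a median of 0.95; without PPARγ2KO replicate 2 the counts were 7 and 9 (4.47% of all genes by adjusted p alone). The 7 became 1 without any one of WT replicates 1 and 2, PPARγ2KO replicate 1, ob/ob replicates 2 and 3 and POKO replicate 1, 13 without PPARγ2KO replicate 3, and 4 with the normexp background. Ifit2, an RNA-binding antiviral protein, was at 5.0 to 6.56 (median 5.47) on lean and 7.32 to 8.0 (median 7.47) on obese arrays, without overlap (difference 1.91, SE 0.23, adjusted p = 0.0158). Igtp, a GTPase that acts on pathogen vacuoles, was at 9.34 to 10.79 (median 9.82) on lean and 11.19 to 11.67 (median 11.35) on obese arrays (difference 1.42, adjusted p = 0.0231). The genes whose promoters are printed differed by 1.69 (Ifit3, adjusted p = 0.0356), 1.25 (Gbp2, adjusted p = 0.0333) and 0.99 (Cxcl10, adjusted p = 0.0426). The mean of the list was 8.05 to 9.52 on lean and 9.39 to 10.01 on obese arrays, and the lean array that reached the obese range was PPARγ2KO replicate 3, not replicate 2. The median difference of the list was 1.31 with PPARγ2 intact and 0.45 without it.

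Of 8 erythroid markers 2 rose, Hba-a1 and Alas2, while 4 members were higher and 4 lower (median -0.005). The median rests partly on dim probes: 3 members, Ermap and Epb42 among them, were well above background on no array, and 1 more on no lean array. The mean of the list was 2.56 to 3.35 on lean and 3.31 to 3.95 on obese arrays. Hba-a1, alpha globin, was at 7.28 to 9.65 (median 8.58) on lean and 10.07 to 12.42 (median 11.24) on obese arrays, without overlap (difference 2.55, SE 0.47, adjusted p = 0.0269). The beta globin Hbb-bt, which is outside the list, differed by 2.68 (adjusted p = 0.0301), with 3 more probes at 1.99 to 2.58. Globin genes have close copies whose RNA such probes may not separate. Alas2, the heme synthesis enzyme of red cell precursors, rose by 2.36 (adjusted p = 0.04) but was well above background on only 2 lean arrays. Of 18 endothelial markers all 18 had a positive difference (median 0.70) and 1 passed both criteria. The list median was 1.18 with PPARγ2 intact and 0.28 without it. Pecam1, the adhesion molecule CD31, rose by 1.21 (SE 0.28, adjusted p = 0.0419), with the lean array PPARγ2KO replicate 3 (8.15) inside the obese range of 8.04 to 8.39. Without PPARγ2KO replicate 2 Pecam1 gave 1.07 (adjusted p = 0.0556). Thy1, carried by fibroblasts and also by T cells, was the 1 of 19 stellate and fibroblast markers that rose (1.25, adjusted p = 0.0422, and adjusted p = 0.0596 for a second probe), and PPARγ2KO replicate 2 was its highest lean array (10.08).

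The fallen genes were fewer, and most were members of none of the lists. Serpina5, which encodes the protein C inhibitor, a serine protease inhibitor, was at 4.69 to 6.72 (median 5.97) on lean and 1.22 to 3.84 (median 2.68) on obese arrays. It was well above background on 2 of 6 obese arrays, and the difference was -3.14 (SE 0.49, adjusted p = 0.0197). A second Serpina5 probe was not well above background on any array. Kcnj12, the inward rectifier potassium channel Kir2.2, was at 6.52 to 7.38 (median 6.80) on lean and 2.37 to 5.18 (median 4.16) on obese arrays. Its lean arrays spanned less than 1 log2 unit, and the difference was -2.86 (SE 0.36, adjusted p = 0.0158). Nat8, an N-acetyltransferase of the endoplasmic reticulum, was at 6.69 to 7.69 (median 7.02) on lean and 5.03 to 5.85 (median 5.22) on obese arrays, without overlap (difference -1.74, SE 0.21, adjusted p = 0.0158). The rule that picked these 3 genes required lower values on all 6 obese arrays. Their order in both PPARγ2 states was therefore fixed by the choice.

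The other large falls were given by single genes. Cyp3a13, a cytochrome P450, was at 9.19 to 11.82 (median 9.57) on lean and 6.82 to 8.88 (median 7.92) on obese arrays (difference -2.13, SE 0.51, adjusted p = 0.0437), with its highest values on WT replicate 1 (11.82) and WT replicate 2 (10.58); its adjusted p exceeded 0.05 in 13 of 21 alternatives. Ugt2b35, a glucuronosyltransferase, fell by 1.48 on the log2 scale (adjusted p = 0.0437), and its adjusted p exceeded 0.05 in 14. Clic6, a chloride intracellular channel protein, was at 8.62 to 9.21 (median 8.91) on lean and 6.28 to 7.87 (median 7.39) on obese arrays, without overlap (difference -1.64, SE 0.25, adjusted p = 0.0196). Raet1e, a ligand of the NKG2D receptor of killer lymphocytes, was at 7.01 to 9.71 (median 8.10) on lean and 5.40 to 7.01 (median 5.94) on obese arrays (difference -2.09, SE 0.45, adjusted p = 0.0358). The remaining largest falls without overlap were Cpa4 (-1.82), a carboxypeptidase, Lancl3 (-1.45), BC034090 (-1.68), the kallikrein Klk1b26 (-1.42) and H2ap (-1.47). The adjusted p exceeded 0.05 in 13 of 21 alternatives for H2ap, 11 for Raet1e, and 9 each for BC034090 and Klk1b26. It did so in 5 for Cpa4, 3 for Clic6 and 1 for Lancl3.

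**Figure D4:**
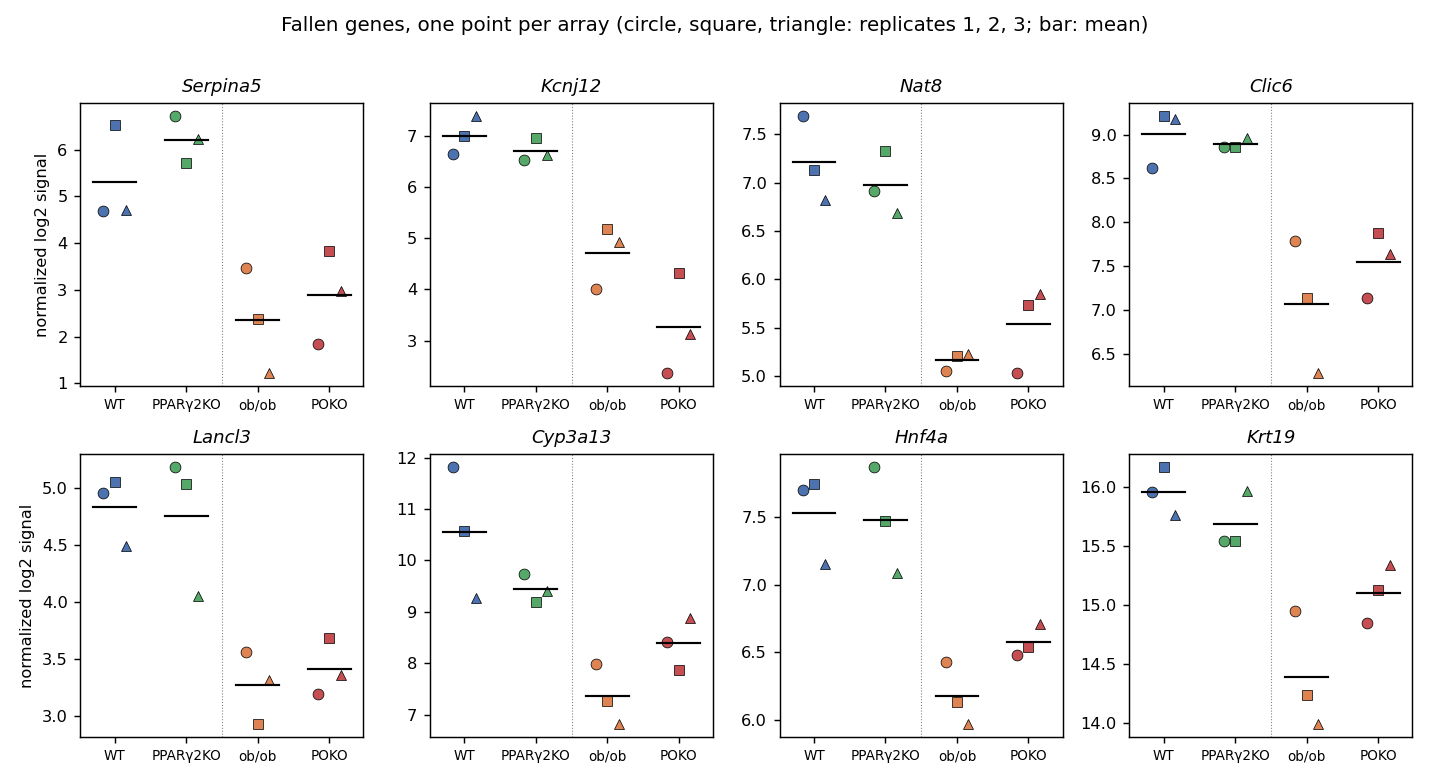
Normalized log2 signal (y axis) of 8 fallen genes in the 4 genotypes (x axis), 1 point per array with marker shape for the replicate number and a bar for the mean of 3; the dotted line separates lean from obese. In every panel the 6 obese points lie below the 6 lean points, which the choice of genes required except for Hnf4a and Krt19. In Cyp3a13 the lean spread comes from WT, at 9.26 to 11.82.

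Among 15 duct markers 12 had a negative difference (median -0.38), where 9764 of 17305 genes did, and 1 fell by both criteria. The duct median was -0.57 with PPARγ2 intact and -0.06 without it. Krt19, a keratin of duct cells, was at 15.54 to 16.17 (median 15.86) on lean and 13.99 to 15.34 (median 14.90) on obese arrays, without overlap (difference -1.07, SE 0.23, adjusted p = 0.0356). Of 23 tight junction and desmosome genes 22 had a negative difference (median -0.33), and the desmosomal cadherin Dsc2 (-0.95, adjusted p = 0.0315) and the claudin Cldn3 (-0.52, adjusted p = 0.0373) fell by adjusted p alone, where 3.33% of all genes did. This list had medians of -0.71 with PPARγ2 intact and -0.12 without it. Of 23 sterol synthesis genes 21 had a negative difference (median -0.43) and 0 fell by both criteria. Only Hsd17b7 fell by adjusted p alone (-0.75, adjusted p = 0.03), against 3.33% of all genes. The sterol median was -0.77 with PPARγ2 intact and 0.01 without it. Tff1, a mucosal trefoil peptide, was at 6.46 to 9.74 (median 7.51) on lean and 4.11 to 6.51 (median 5.27) on obese arrays; the groups overlapped, and the difference was -2.38 (SE 0.59, adjusted p = 0.0467, and 0.051 without PPARγ2KO replicate 2). No member of 22 acinar markers, 10 adipocyte markers, 27 PPAR targets and fatty acid oxidation genes, 18 circadian clock genes or 12 Schwann cell and neuron markers passed; the acinar list was at a mean of 16.46 to 16.83 on obese and 16.64 to 16.97 on lean arrays. Of 43 oxidative phosphorylation subunits Uqcrc1 alone passed adjusted p, by -0.24, and of 21 folding and stress genes of the endoplasmic reticulum Hsp90b1 alone, by 0.67 (second probe 0.63, adjusted p = 0.0589).

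The leptin effect was also taken within each PPARγ2 state, which uses separate arrays on the same slides. With PPARγ2 intact (ob/ob against WT, n = 3 arrays each), 1467 probes rose (3.56%) and 786 fell (1.91%). With PPARγ2 absent (POKO against PPARγ2KO, n = 3 arrays each), 2 rose (0.00486%) and 0 fell, and both, Osm and an unnamed probe, stayed below the background limit on all arrays. The difference between the states was tested as an interaction: 0 of 41174 probes passed limma's adjusted p of 0.05 (smallest 0.118), and 5721 had an unadjusted p below 0.05. No gene was therefore shown to respond differently to leptin deficiency with and without PPARγ2 in the fit on all arrays. Without WT replicate 3, 685 probes passed the interaction test, and without PPARγ2KO replicate 2 the PPARγ2-null comparison gave 175 rises and 49 falls.

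Of the 1467 probes risen with PPARγ2 intact, 1309 (89.2%) were also higher in POKO than in PPARγ2KO, where 41.9% of all probes were, and their median difference was 1.71 with and 0.59 without PPARγ2. The probes were chosen on the first comparison, which raises its median. Of the 786 fallen, 592 (75.3%) were lower in POKO, where 58.1% of all probes were, with medians of -1.29 and -0.25, open to the same selection. Over all probes the differences of both states correlated at r = 0.41, across probes, which are not independent replicates and share slides. Leaving out PPARγ2KO replicate 2 changed the median of the risen probes without PPARγ2 from 0.59 to 0.61. With PPARγ2 intact first, Scg2 gave 2.64 and 2.09, Cartpt 2.17 and 2.92, Cck 1.93 and 2.57, Socs3 0.90 and 0.83, Serpina5 -2.96 and -3.33, and Kcnj12 -2.29 and -3.43. Lyz1 gave 2.37 and 2.34, with PPARγ2KO replicate 2 (10.01, against 7.04 and 7.22 on the other PPARγ2KO arrays) among the controls of the second value. Others were larger with PPARγ2 intact, such as Thrsp (2.73 and 1.1), Ifit3 (2.55 and 0.84) and Cyp3a13 (-3.20 and -1.06), though none of these differences passed after adjustment. The list medians differed most for B cell (3.89 and 2.06) and T cell markers (3.00 and 1.44), and PPARγ2KO replicate 2 belongs to the controls of the second value.

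**Figure D5:**
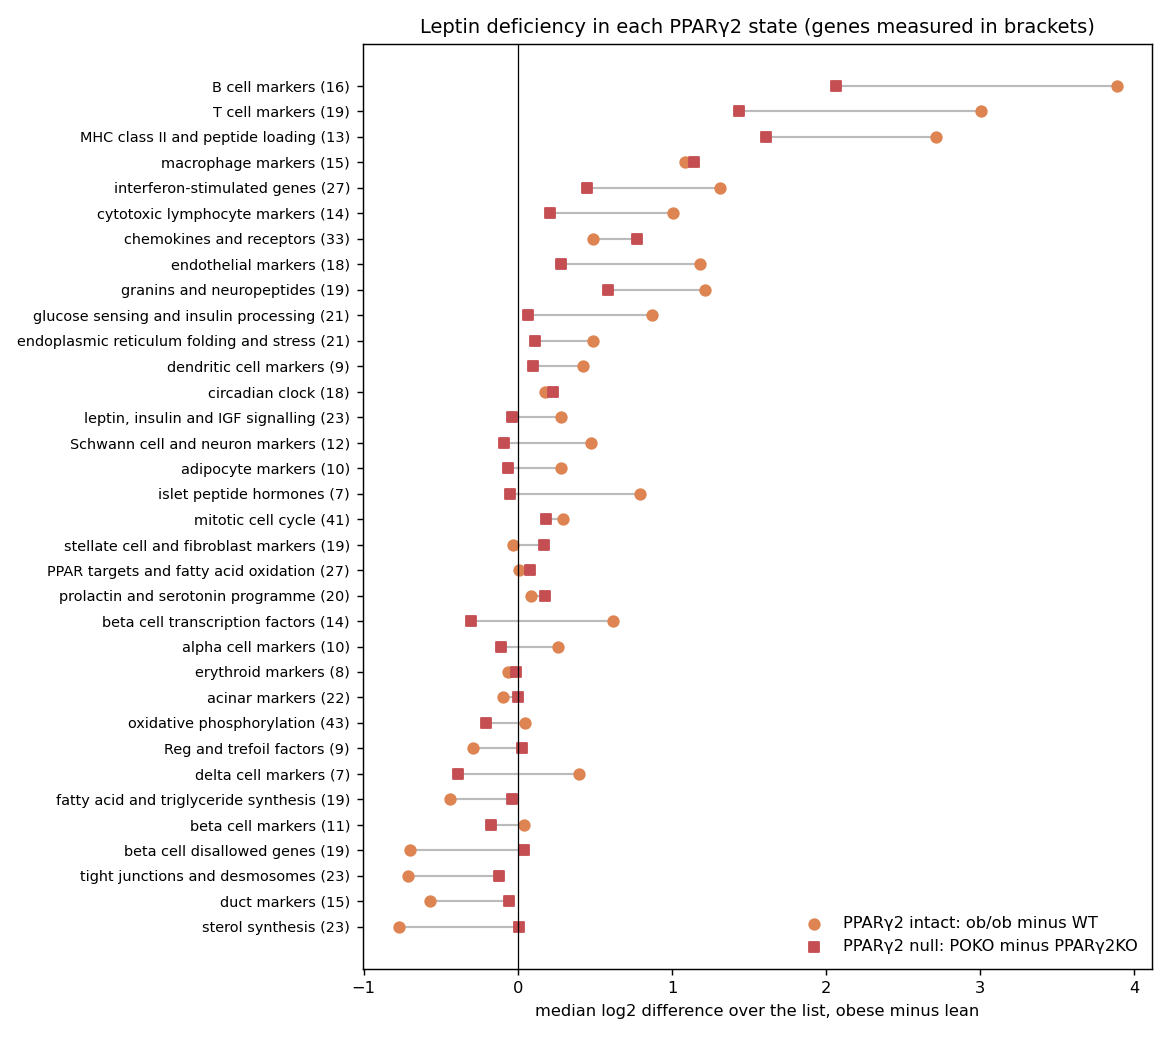
Median log2 difference of obese minus lean islets (x axis) for 34 gene lists (y axis, with the number of genes measured), with PPARγ2 intact (circles, ob/ob minus WT) and without it (squares, POKO minus PPARγ2KO), joined by a line. The B cell (3.89 and 2.06), T cell and MHC class II lists lie furthest to the right in both states. Other immune lists lie closer to the rest, with macrophage markers at 1.09 and 1.14 and cytotoxic markers at 1.01 and 0.206. Chemokines are at 0.489 and 0.773 and dendritic cell markers at 0.425 and 0.098. Sterol synthesis is at -0.77 with PPARγ2 and at 0.01 without it.

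The 5 genes with the smallest interaction p had means in opposite order of PPARγ2 state in lean and obese islets. Abtb2 was at 9.66 to 10.27 in WT and 9.50 to 9.63 in PPARγ2KO, and at 9.0 to 9.24 in ob/ob and 9.93 to 10.27 in POKO. Anxa10, an annexin of the stomach lining, was at 9.17 to 9.51 in WT, 7.11 to 7.46 in PPARγ2KO, 7.85 to 8.42 in ob/ob and 8.12 to 9.18 in POKO. Gas6, a ligand of the TAM receptor kinases, and Carhsp1 followed the same order as Abtb2, and Msantd1 the opposite one. Their adjusted p for the interaction was 0.17 to 0.19, and their averaged leptin differences were -0.42 to 0.08. A second Carhsp1 probe gave an averaged difference of -0.84 (adjusted p = 0.0301).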

How the data were processed

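Islet RNA from 12 pools, 3 per genotype, was hybridised to 1-colour Agilent arrays. The deposited scanner files were made by the authors with Agilent Feature Extraction 10.1.1.1, per the submitters' processing notes, and hold processed signal intensity per spot, background-corrected and not normalized between arrays. The series table holds values that the authors normalized on the log2 scale (r = 0.9997 with the values used here), which served as an alternative. Per the file headers the array design is annotated on mm9, and probes were named by matching its transcript accessions to RefSeq genes.

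From 45018 spots per array, 1639 control spots and 919 outlier spots over all arrays were left out, no spot was saturated, and spots of 1 probe were averaged (41174 probes, of which 25097 carry a symbol of 17305 genes and 16077 carry none). A probe missing on an array (119 values) enters the fit without that array. Processed signals were quantile normalized and log2 transformed with limma 3.58.1 in R 4.3.3. The study's limma fit named the array as a blocking variable, whereas the fit here carries no block, with the slide as a block among the alternatives. The obese minus lean difference was fitted with lmFit and eBayes in an additive model with the PPARγ2 state, over all 12 arrays and all probes, with Benjamini-Hochberg adjustment. The interaction and the difference within each PPARγ2 state came from a model with 4 genotypes. Calls required an adjusted p of at most 0.05 and an absolute log2 difference of at least 1. A gene was represented by its brightest probe, and second probes are given for genes named in the text where their call differs.

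Named genes were the 12 largest rises and the 12 largest falls among called genes whose 6 obese and 6 lean arrays did not overlap, the 5 smallest interaction p-values, and, from 34 lists with 657 genes, up to 4 called members with the smallest adjusted p and the 2 brightest others. Further list members were named after their values had been seen. The members and lists were chosen with earlier results of these data known.

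The replicate number equals the slide, and each slide held all 4 genotypes, while the position on a slide equals the genotype and cannot be told apart from it. Deviations from genotype means correlated at -0.13 to 0.18 (median 0.03) between arrays of the same number, over 0.1 in 4 of 18 pairs. Between arrays of other numbers they correlated at -0.18 to 0.16 (median -0.04), over 0.1 in 3 of 36 pairs. The numbers were not taken to pair the arrays in the main fit, which is a choice, and a slide effect was not tested. The fit with the slide as a block is given beside it. The p-values measure the spread between pools.

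The fit was tested on simulated data for the obese minus lean comparison: of 50 probes each given a log2 difference of 1, 2, 3 and 4 among 41055 probes, 66%, 84%, 92% and 98% were recovered by adjusted p, with 4 false calls. The simulated errors were normal and independent, with variances drawn from limma's own fitted prior and no outlying array. These rates therefore check the code and do not give the error of the calls on the real arrays. Alternatives were scaling to the 75th percentile, normexp background correction with an offset of 50 on median signals (mean signals were not used here), a filter on dim probes, outlier spots kept, the replicate number as a block, array weights, an interaction term, the authors' values and each array left out. Leaving out PPARγ2KO replicate 2 together with WT replicate 1, the array with the lowest Ins1, was added after seeing the data. Promoters came from RefSeq (GRCm38.p6). Cpe and Usp18 had no entry. Single genes of the lists are counted in their list but not reported by name here.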

Additional observations from a re-analysis of the deposited data

Results flagged for a closer look

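The highest or lowest array of a group of 6 was set against the others by its gap to the nearest array divided by the group's range, and compared with Dixon's critical value for 6 arrays. Chance passes about 1 in 20 groups. Of 138 groups (69 genes in lean and in obese arrays) 21 passed, and of 68 groups of list means 7 passed. PPARγ2KO replicate 2 was the array in 17 of the 21 and in 5 of the 7, in each case as the highest lean array.

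Its ratios among B cell genes were 0.972 (Blk), 0.844 (Pou2af1), 0.766 (Cd79b) and 0.741 (Fcmr). Among T cell and other lymphocyte genes they were 0.973 (Cxcr3), 0.901 (Selplg), 0.775 (Klrd1), 0.772 (Il7r), 0.729 (Cd5), 0.692 (Ccr7), 0.689 (Lck) and 0.674 (Laptm5). Antigen presentation genes gave 0.918 (H2-Ob), 0.822 (H2-Ab1), 0.793 (H2-Aa) and 0.698 (Cd74). For list means the ratio was 0.834 for MHC class II, 0.831 for T cell, 0.819 for B cell and 0.792 for cytotoxic lymphocyte markers and 0.729 for chemokines and receptors. Why this array stood apart was not tested. The study's quality checks reported no outlier arrays, and its statistical methods mention a smaller sample size in a group that they do not name.

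The other groups that passed involved other arrays. Among lean arrays Igfbp3 was highest on PPARγ2KO replicate 3 (ratio 0.649). Among obese arrays BC034090 was lowest on ob/ob replicate 3 (0.884), Ugt2b35 and C1qa were lowest on POKO replicate 3 (0.87 and 0.755), the granin and neuropeptide mean was lowest on the same array (0.646), and the acinar mean was lowest on ob/ob replicate 1 (0.629).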

How the results depend on the processing

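None of the 69 named genes called in the additive fit changed sign under any of 21 alternatives, and 43 kept an adjusted p of at most 0.05 in every alternative that keeps all arrays. With the replicate block, 54 kept it and 15 did not (highest adjusted p 0.0654), and 924 called probes became 650. This is the replicate number, which was not shown to pair the arrays. The obese against lean count was 100 with normexp (93 higher, 7 lower), and by adjusted p alone 1486 there and 3722 with an interaction term, against 2453. The count with PPARγ2 intact, 2253, was 372 with normexp and 1269 with array weights. The count with PPARγ2 absent, 2, was 0 with 75th percentile scaling, with normexp and with the filter on dim probes, and 1 with the replicate block and with array weights. The interaction count, 0, was 1 with the authors' values. Leaving out 1 array at a time gave 101 to 1527 called probes, 161 to 5144 by adjusted p alone, 1 to 685 for the interaction, 150 to 3982 with PPARγ2 intact and 1 to 339 with it absent. Without PPARγ2KO replicate 2 and WT replicate 1 together, chosen after seeing the data, the counts were 707, 998 by adjusted p alone, 6 for the interaction, 844 with PPARγ2 intact and 153 with it absent. The cause of these changes was not tested. By adjusted p alone, 75th percentile scaling gave 1538 higher and 970 lower against 1195 and 1258. The median difference of all probes was -0.06, and was -0.12 with that scaling. Dim probes, such as Cxcr3, Lax1, Chil6 and Serpina5, depend on the background correction for the size of their difference. Brighter genes were not exempt, as Hnf4a, Nat8 and Ifit2 came down to -0.41, -0.44 and 0.58 over the alternatives.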
